A study of Drosophila melanogaster with 12 samples.

Results

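The measurement was the change in RNA that goes with rbf120a, an allele of the Drosophila retinoblastoma family gene Rbf, averaged over discs with and without a mutation of warts (wts). The members are 6 arrays with the allele, set against 6 arrays without it, which is all 12 arrays of the series, and the change was estimated for 11982 genes with the wts genotype as a covariate. The 4 genotypes had 3 arrays each: rbf120a, rbf120a wtsX1Lats, wtsX1Lats and Canton S. The tissue was the eye disc of late (L3) larvae, and RNA was hybridised to Affymetrix expression arrays. rbf120a is the spelling of the genotype labels, and the sample titles write rbfl120a. wtsX1Lats is a warts allele, and the product of warts is the kinase that the Hippo growth pathway acts through. Canton S is a laboratory wild type.

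Per the series' design text the mutant discs were mosaics in which mutant cells outnumbered the wild-type cells that remained, so a change measured in a whole disc mixes both. The labels call the replicates biological but give neither the number of larvae per sample nor their sex, and p-values measure the spread between these samples. The labels also do not give the recombination driver or the strain in which the alleles were kept. The step between rbf120a and Canton S therefore holds the allele and any strain difference together. The step between rbf120a wtsX1Lats and wtsX1Lats leaves Canton S out. In a whole disc, fewer cells of a type and less RNA per cell cannot be told apart.

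Rbf binds heterodimers of E2F and Dp and keeps their target genes off until cyclin-dependent kinases phosphorylate it. The best known targets are genes that a cell needs in S phase: the factors that license and fire replication origins, the polymerases, the enzymes that make deoxynucleotides and the chaperones that place histones on new DNA. In the larval eye disc the morphogenetic furrow crosses the tissue, cells ahead of it divide at random, and most cells behind it pass through the second mitotic wave or leave the cycle as photoreceptors.

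Values are log2 signals as the authors deposited them, so a difference of 1 is a doubling, and levels of different probe sets are not compared. The eye disc markers ey, eya, so, Optix, dac, gl, elav, ato, sev and ro were all measured, and none of them passed the test for the main effect. ey, the Pax6 gene at the top of retinal determination, averaged 9.61 ± 0.21 in rbf120a, 10.47 ± 0.13 in rbf120a wtsX1Lats, 9.89 ± 0.15 in wtsX1Lats and 9.57 ± 0.09 in Canton S (SD, n = 3 each). The neuronal gene elav averaged 9.87 ± 0.21, 9.10 ± 0.21, 9.11 ± 0.76 and 10.15 ± 0.14 in the same groups.

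Rbf itself (CG7413, X chromosome) did not pass the test. Its log2 signal was 9.13, 9.13 and 9.22 in rbf120a and 8.96, 9.36 and 9.26 in rbf120a wtsX1Lats, against 8.72, 9.67 and 10.10 in wtsX1Lats and 9.53, 9.31 and 9.51 in Canton S. The main effect was -0.30 ± 0.18 (SE; adjusted p = 0.6), and the arrays with and without the allele overlapped. It was -0.47 (adjusted p = 0.0575) without wtsX1Lats replicate 1 and -0.16 (adjusted p = 0.666) without wtsX1Lats replicate 3. For wts (CG12072, arm 3R) the main effect of rbf120a was -0.01 ± 0.16 (adjusted p = 0.993). The labels do not place the lesion relative to the probes, so neither level serves as a check of genotype. The 40 genes that flank Rbf on the X chromosome, 20 on each side, had a median main effect of -0.01 and a range of -0.43 to 0.57; 0 of them passed the adjusted test and 5 were at an unadjusted p under 0.05, against 11.1% of all genes.

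Across both backgrounds 28 genes changed with rbf120a at an adjusted p under 0.05, which is 0.234% of the genes tested. Of these 18 rose (0.15% of the genes tested) and 10 fell (0.0835%). Of the 18 rises, 6 were in the lists of DNA replication and chromatin assembly and 1 each in the lists of E2F and Rbf subunits, cyclins and Cdks, DNA damage response and piRNA genes, while 0 of the 10 falls were in any of the 32 lists. Changes were between 0.26 and 1.76 in size, and 3 of the genes changed by at least 1 on the log2 scale: del and RecQ4 rose and CG16704 fell. At an unadjusted p under 0.05 the count was 1330 genes (11.1%), 626 higher (5.22%) and 704 lower (5.88%). In 17 of the 18 genes that rose, all 6 arrays with the allele lay above all 6 without it, as in 0.517% of all genes; the exception was crp. Among the 10 that fell, 6 had all 6 arrays with the allele below the others, as in 0.417% of all genes. The genes were called on the same arrays, so this separation follows in part from the call and adds no support to it.

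The size of this count depended on single arrays. It was 1 without rbf120a replicate 1, 2 or 3, without rbf120a wtsX1Lats replicate 3 and without Canton S replicate 1, and in each case the remaining gene was del. It was 5 and 11 without rbf120a wtsX1Lats replicates 1 and 2, 11 without wtsX1Lats replicate 2, and 16 and 3 without Canton S replicates 2 and 3. It was 269 without wtsX1Lats replicate 1, with 195 higher and 74 lower, and 73 without wtsX1Lats replicate 3, and both of these counts included all 28 genes. Except for del, each of the 28 genes lost its call under at least 1 alternative, with the highest adjusted p of a gene between 0.0776 and 0.188, while the sign of its change was the same under all of them.

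**Figure D1:**
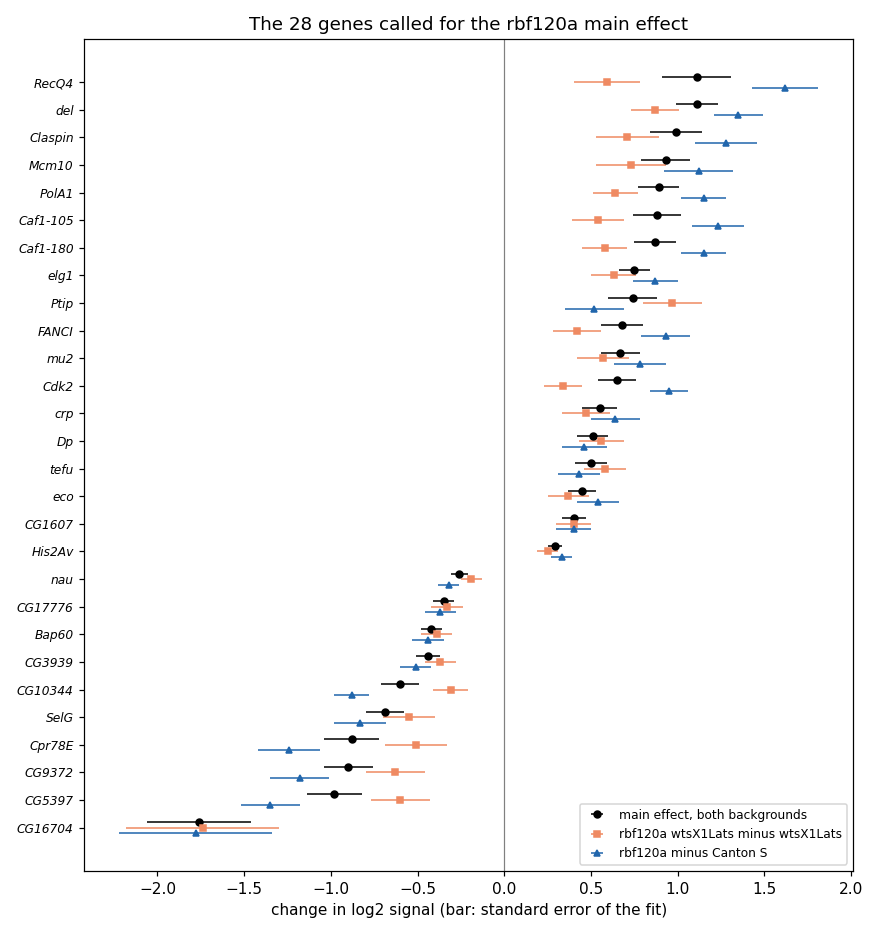
Change in log2 signal for the 28 genes called for the main effect of rbf120a. Circles show the main effect, squares the change of rbf120a wtsX1Lats over wtsX1Lats and triangles the change of rbf120a over Canton S; bars are standard errors of the fit. For every gene all 3 symbols lie on the same side of 0, and for 24 of the 28 the square is nearer to 0 than the triangle.

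The gene with the smallest p was del (deadlock; CG9252, arm 2L), which acts with Rhino in the germline to have piRNA source loci transcribed. It read 7.74, 7.58 and 7.74 in rbf120a and 8.37, 8.22 and 8.09 in rbf120a wtsX1Lats, against 7.43, 7.39 and 7.23 in wtsX1Lats and 6.32, 6.60 and 6.11 in Canton S. The 4 groups did not overlap, and the double mutant was highest. The main effect was 1.11 ± 0.12 (SE; adjusted p = 0.00517), which is a 2.16-fold difference, and the call held in 19 of 19 alternatives with adjusted p between 0.000216 and 0.0296. The same fit gave the wts allele a change of 0.77 in del (adjusted p = 0.00406).

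Among the other 24 measured genes of the germline and piRNA list none passed the test, 6 were higher at an unadjusted p under 0.05 (against 5.22% of all genes), and the median of all 25 list genes was 0.04. Examples not past the test here and below were chosen after their values were seen. spn-E, a helicase of the piRNA pathway, had a main effect of 0.57 ± 0.15 (adjusted p = 0.15). cuff, a partner of del in the same complex, had 0.35 (adjusted p = 0.365).

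Origin firing and the replication fork supplied RecQ4, Mcm10, PolA1 and Claspin. PolA1 (CG6349, arm 3R) encodes the catalytic subunit of DNA polymerase alpha, which primes each new strand. Its log2 signal was 9.70, 9.67 and 9.57 in rbf120a and 9.74, 9.42 and 9.76 in rbf120a wtsX1Lats, against 9.01, 8.87 and 9.12 in wtsX1Lats and 8.45, 8.72 and 8.34 in Canton S. Every array with the allele was above every array without it, and wtsX1Lats stood above Canton S. The main effect was 0.89 ± 0.12 (SE; adjusted p = 0.0159).

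Mcm10 (CG9241, arm 2L), which helps turn the loaded helicase on, read 9.74, 9.74 and 9.90 in rbf120a and 9.82, 9.52 and 9.79 in rbf120a wtsX1Lats, against 9.37, 8.91 and 8.65 in wtsX1Lats and 8.73, 8.96 and 8.32 in Canton S. The groups with and without the allele were apart by a small gap, set by wtsX1Lats replicate 1. Its main effect was 0.93 ± 0.14 (adjusted p = 0.0323). RecQ4 (CG7487, arm 3L), a RecQ family helicase used at origins, lay between 8.24 and 8.61 with the allele (median 8.47) and between 6.61 and 8.24 without it (median 7.23), with a main effect of 1.11 ± 0.20 (adjusted p = 0.0484).

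Claspin (CG32251, arm 3L) carries the checkpoint signal from a stalled fork to the kinase Chk1. It read 9.17, 9.38 and 9.34 in rbf120a and 9.06, 9.02 and 9.14 in rbf120a wtsX1Lats, against 8.16, 8.15 and 8.80 in wtsX1Lats and 7.86, 8.28 and 7.90 in Canton S. All arrays with the allele were higher, and wtsX1Lats replicate 3 came nearest to them. The main effect was 0.99 ± 0.15 (adjusted p = 0.0323). elg1 (CG16838, arm 3L), known in yeast for taking the sliding clamp PCNA off DNA, lay between 9.35 and 9.55 with the allele and between 8.46 and 9.03 without it, and rose by 0.75 ± 0.09 (adjusted p = 0.0145).

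Chromatin assembly behind the fork gave 3 further rises. CG12109 (X chromosome) and Caf1-105 (CG12892, arm 2R) encode the large and the middle subunit of CAF-1, the chaperone that places histones H3 and H4 on new DNA. CG12109 read 10.36, 10.49 and 10.25 in rbf120a and 10.35, 10.33 and 10.61 in rbf120a wtsX1Lats, against 9.86, 9.64 and 10.05 in wtsX1Lats and 9.24, 9.22 and 9.20 in Canton S. The values formed 3 levels: both groups with the allele together, wtsX1Lats below them and Canton S lowest. Its main effect was 0.87 ± 0.12 (adjusted p = 0.0176), and that of Caf1-105 was 0.88 ± 0.14 (adjusted p = 0.0335). His2Av (CG5499, arm 3R), the histone variant that does the work of H2A.Z and H2A.X, lay between 13.44 and 13.66 with the allele and between 13.13 and 13.41 without it, and rose by 0.29 ± 0.04 (adjusted p = 0.0323).

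**Figure D2:**
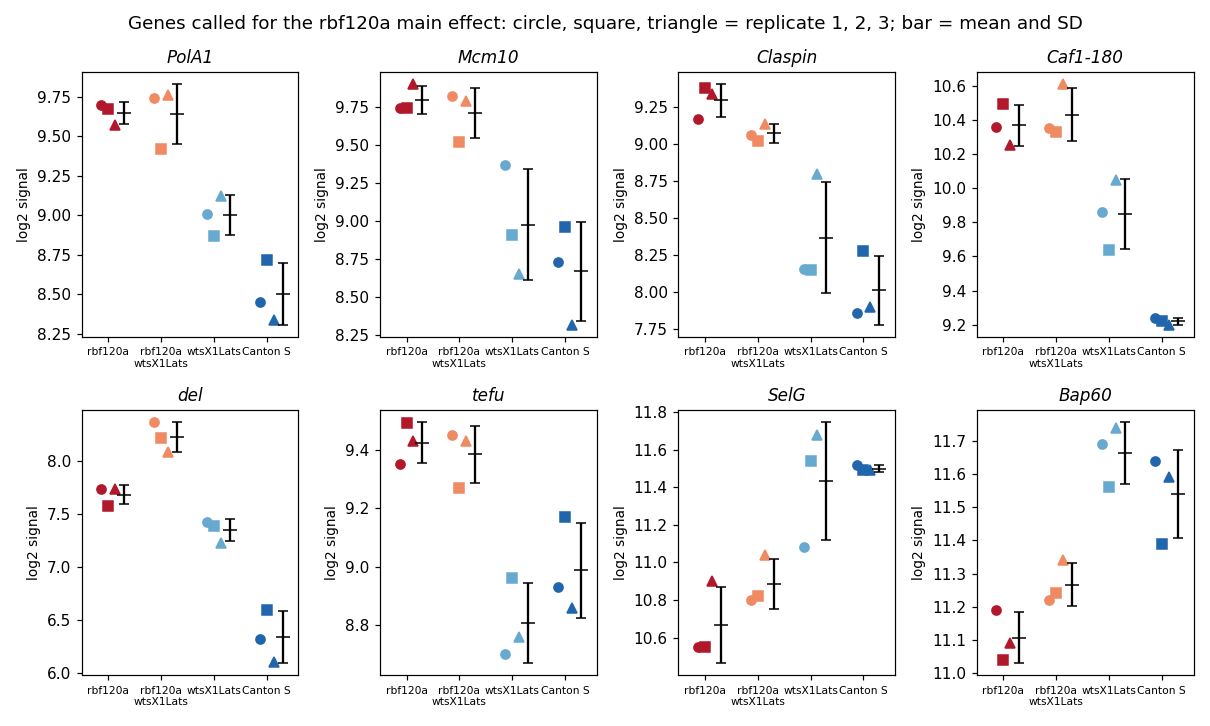
log2 signal of 8 genes called for the main effect, in each array (circle, square and triangle for replicates 1, 2 and 3), with the mean and SD of each group as a bar beside the points. PolA1, Mcm10, Claspin, CG12109 (the upper right panel, under its Caf1 symbol), del and tefu lie higher in all 6 arrays with rbf120a (left pair of groups) than in all 6 without it, and SelG and Bap60 lie lower.

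Taking the 4 lists of origin licensing and helicase, replication fork, nucleotide supply and chromatin assembly as 1 group of 53 measured genes, 6 rose (11.3%, against 0.15% of all genes) and 0 fell. The main effect was above 0 in 48 of the 53 (90.6%), against 46.5% of all genes, and its median was 0.58, against -0.01 over all genes. At an unadjusted p under 0.05, 39 were higher (against 5.22% of all genes) and 1 was lower (against 5.88%). The lower gene was HP1b, which encodes a heterochromatin protein (-0.21 ± 0.06, adjusted p = 0.182). The lists were written with earlier results of these data known, so these counts describe the genes and test nothing about the group.

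Each of the 4 lists had a positive median. Of 19 licensing and helicase genes 1 rose, with a median of 0.58. Of 21 fork genes 2 rose, with a median of 0.67. Of 9 chromatin assembly genes 3 rose, with a median of 0.56, while the 4 nucleotide supply genes had the highest median, 0.83, and 0 calls. Over all genes 0.15% rose. At an unadjusted p under 0.05, 15 licensing, 15 fork, 6 chromatin assembly and 3 nucleotide supply genes were higher, against 5.22% of all genes.

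Several familiar E2F targets had main effects as large as those of genes that passed but did not pass themselves. Orc1, the origin recognition subunit, read 9.63, 9.76 and 9.76 in rbf120a and 9.74, 9.53 and 9.78 in rbf120a wtsX1Lats, against 10.21, 8.51 and 9.17 in wtsX1Lats and 7.84, 8.04 and 7.61 in Canton S. The highest of all 12 values was in wtsX1Lats replicate 1, and the main effect was 1.14 ± 0.30 (adjusted p = 0.152). PCNA, the sliding clamp, had the same order: 12.64, 12.46 and 12.55 in rbf120a and 12.72, 12.40 and 12.72 in rbf120a wtsX1Lats, against 12.98, 12.05 and 12.02 in wtsX1Lats and 11.49, 11.42 and 11.47 in Canton S.

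Again wtsX1Lats replicate 1 was the highest array and wtsX1Lats replicates 2 and 3 lay below all arrays with the allele. The main effect of PCNA was 0.67 ± 0.18 (adjusted p = 0.164). RnrL, the large subunit of ribonucleotide reductase, had 0.78 ± 0.16 (adjusted p = 0.0785). dup, the fly Cdt1 that loads the Mcm helicase, had 0.78 ± 0.16 (adjusted p = 0.0837), and timeout, a relative of the circadian gene timeless, had 1.40 ± 0.30 (adjusted p = 0.0837).

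The contribution of wtsX1Lats replicate 1 can be read for the whole group. The median deviation of the 53 genes from their own mean over 12 arrays was 0.28, 0.23 and 0.30 in rbf120a and 0.43, 0.11 and 0.39 in rbf120a wtsX1Lats, against 0.65, -0.29 and -0.24 in wtsX1Lats and -0.67, -0.44 and -0.77 in Canton S. wtsX1Lats replicate 1 was thus the highest array and its 2 fellow replicates were below every array with the allele. In the same array the median of the 31 photoreceptor and cone cell genes was the lowest of all 12 arrays, -0.59, as were those of 14 muscle genes, -0.61, and 8 antennal disc genes, -0.81. wtsX1Lats replicate 3 had the highest muscle and antennal medians, 0.82 and 0.83, and the largest 3′ over 5′ difference of the array's control probe sets: 1.70 for actin, 1.81 for GAPDH and 1.90 for eIF-4A, against at most 0.82, 1.43 and 0.95 in the other arrays. The part of tissue content and RNA quality in the main effect was not tested.

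Without wtsX1Lats replicate 1, 41 of the 53 genes rose across both backgrounds, as did 195 of all 11982 genes. The median main effect of the 53 was 0.80. Leaving out that single array thus moved the count over all genes from 18 to 195 and that of the 53 from 6 to 41. The reason was not tested. Without wtsX1Lats replicate 3 the number was 6, as with all arrays; it was 0 without rbf120a replicate 1, 2 or 3, without rbf120a wtsX1Lats replicate 3 and without Canton S replicate 1, 2 without rbf120a wtsX1Lats replicate 1, 3 without wtsX1Lats replicate 2 and 1 without Canton S replicate 3.

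**Figure D3:**
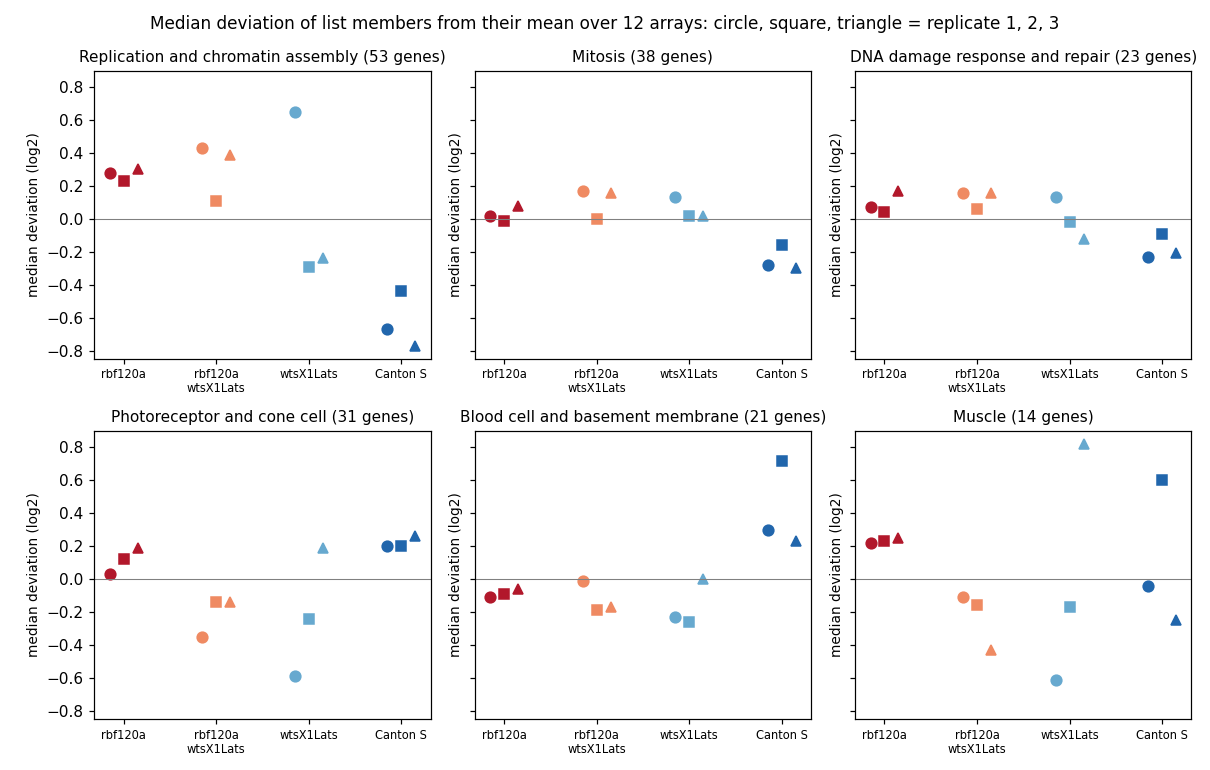
Median deviation, in log2 units, of the genes of 6 lists from each gene's mean over the 12 arrays, by array (circle, square and triangle for replicates 1, 2 and 3). In the replication panel the 6 arrays with rbf120a lie between 0.11 and 0.43, Canton S between -0.77 and -0.44, and wtsX1Lats replicate 1 stands at 0.65 above its fellow replicates; the same array is lowest for photoreceptor and muscle genes.

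The Rbf and E2F machinery itself contained 1 gene that rose among 10 measured, against 0.15% of all genes. At an unadjusted p under 0.05, 4 were higher (against 5.22% of all genes) and 0 lower. Dp (CG4654, arm 2R), the partner that every E2F needs to bind DNA, read 11.20, 11.12 and 11.20 in rbf120a and 11.29, 11.28 and 11.42 in rbf120a wtsX1Lats, against 10.80, 11.03 and 10.49 in wtsX1Lats and 10.84, 10.54 and 10.76 in Canton S. All arrays with the allele were higher, and the change was 0.56 ± 0.13 over wtsX1Lats and 0.46 ± 0.13 over Canton S. The main effect was 0.51 ± 0.09 (adjusted p = 0.0484). None of the other 9 measured genes of this list, which holds the subunits of the dREAM repressor, passed. Rbf2, the second retinoblastoma family gene of the fly, had 0.55 ± 0.14 (adjusted p = 0.146), and E2f2, the repressive E2F, had 0.06 (adjusted p = 0.871).

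Of the 10 cyclins, Cdks and their regulators, 1 rose, against 0.15% of all genes. At an unadjusted p under 0.05, 6 were higher (against 5.22% of all genes) and 1 was lower (against 5.88%). Cdk2 (CG10498, arm 3R), the kinase that Cyclin E activates at S phase entry, read 10.75, 10.77 and 10.70 in rbf120a and 10.68, 10.61 and 10.85 in rbf120a wtsX1Lats, against 10.50, 10.16 and 10.46 in wtsX1Lats and 9.82, 9.70 and 9.85 in Canton S. The groups with and without the allele did not overlap, and wtsX1Lats lay between. Its main effect was 0.65 ± 0.11 (adjusted p = 0.0484). CycE, its cyclin and a textbook E2F target, had 0.47 ± 0.18 (adjusted p = 0.334), and its groups overlapped, since Canton S replicate 2 read 10.36 and wtsX1Lats replicate 3 read 10.61.

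Mitosis genes did not pass the test. Of 38 measured genes 0 were called, 12 were higher (against 5.22% of all genes) and 0 lower at an unadjusted p under 0.05, and the median was 0.15. The smallest adjusted p was that of thr, a subunit of the separase complex that cuts sister chromatids apart, with 0.40 ± 0.08 (adjusted p = 0.0695). Its values were 8.63, 8.63 and 8.72 in rbf120a and 8.81, 8.57 and 8.79 in rbf120a wtsX1Lats, against 8.28, 8.45 and 8.45 in wtsX1Lats and 8.17, 8.25 and 8.16 in Canton S, with no overlap.

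Genes that sense or repair DNA damage gave further rises. tefu (CG6535, arm 3R) encodes the fly ATM kinase, which answers double-strand breaks and protects telomeres. It read 9.35, 9.49 and 9.43 in rbf120a and 9.45, 9.27 and 9.43 in rbf120a wtsX1Lats, against 8.70, 8.96 and 8.76 in wtsX1Lats and 8.93, 9.17 and 8.86 in Canton S. All 6 arrays with the allele were above the rest, and wtsX1Lats was not above Canton S (change with the wts allele -0.11, adjusted p = 0.554). The main effect was 0.50 ± 0.09 (adjusted p = 0.0422).

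Of the 23 measured genes in the damage response and repair list tefu was the 1 call, and 8 were higher (against 5.22% of all genes) and 0 lower at an unadjusted p under 0.05. Msh6, a mismatch recognition subunit, had 0.74 ± 0.14 (adjusted p = 0.0552). In 4 of the 23, all 6 arrays with the allele were above the others, as in 0.517% of all genes. The list median was 0.18.

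RecQ4 and elg1 are in none of the lists, nor are 3 further genes that rose and are known for a part in genome maintenance. mu2 (CG1960, arm 3L), a chromatin protein of the damage response, rose by 0.67 ± 0.11 (adjusted p = 0.0335). FANCI (CG13745, arm 2R), known in vertebrates for the repair of crosslinked strands, rose by 0.68 ± 0.12 (adjusted p = 0.0484). Ptip (CG32133, arm 3L), a BRCT domain protein found with histone H3K4 methyltransferases, rose by 0.74 ± 0.14 (adjusted p = 0.0484).

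Ptip changed by 0.97 ± 0.17 over wtsX1Lats and 0.52 ± 0.17 over Canton S, while FANCI changed by 0.42 ± 0.14 and 0.93 ± 0.14. Neither difference between backgrounds passed the interaction test (adjusted p = 0.603 for Ptip and 0.428 for FANCI). The remaining rises were CG1607 (arm 3R), by 0.40 ± 0.07 (adjusted p = 0.0384), and 2 genes named after their values were seen, the cohesin acetyltransferase gene eco (0.45 ± 0.08, adjusted p = 0.0484) and the basic helix-loop-helix gene crp (0.55 ± 0.10, adjusted p = 0.0484).

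The 10 genes that fell included 6 without a name of their own in the annotation. CG16704 (arm 2L) had the largest change of all 28. It read 8.37, 7.78 and 8.39 in rbf120a and 7.85, 6.77 and 6.93 in rbf120a wtsX1Lats, against 7.73, 9.35 and 9.69 in wtsX1Lats and 9.76, 10.30 and 9.83 in Canton S. wtsX1Lats replicate 1 overlapped the arrays with the allele, and the main effect was -1.76 ± 0.30 (adjusted p = 0.0431). CG5397 (-0.98 ± 0.16, adjusted p = 0.0335) and CG9372 (-0.90 ± 0.14, adjusted p = 0.0323) also overlapped between arrays with and without the allele.

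In these last genes and in Cpr78E, a cuticle protein gene (-0.88 ± 0.16, adjusted p = 0.0484), the wts allele had a change of its own in the same direction: -0.83, -0.76 and -0.77, with adjusted p of 0.0128, 0.0114 and 0.0193. Both alleles thus went with lower signal, and Canton S was highest. For CG5397 the group means were 7.83 ± 0.11 in rbf120a, 7.37 ± 0.13 in rbf120a wtsX1Lats, 7.97 ± 0.12 in wtsX1Lats and 9.18 ± 0.38 in Canton S (SD, n = 3 each).

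Other falls were smaller. SelG (CG1844, X chromosome), a selenoprotein gene, read 10.55, 10.55 and 10.90 in rbf120a and 10.80, 10.82 and 11.04 in rbf120a wtsX1Lats, against 11.08, 11.54 and 11.68 in wtsX1Lats and 11.52, 11.49 and 11.49 in Canton S. The groups did not overlap, and the main effect was -0.69 ± 0.11 (adjusted p = 0.0335). Bap60 (CG4303, X chromosome), a subunit of the Brahma chromatin remodelling complex, changed by -0.39 ± 0.09 over wtsX1Lats and -0.44 ± 0.09 over Canton S, with a main effect of -0.42 ± 0.06 (adjusted p = 0.0323).

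CG3939 (X chromosome) fell by 0.44 on the log2 scale (SE 0.07, adjusted p = 0.0323). CG10344 (arm 2R) had -0.60 ± 0.11 (adjusted p = 0.0484) on the probe set used and a difference of -0.29 on a dimmer one. nau, the fly homologue of the muscle factor MyoD, fell by 0.26 ± 0.05 (adjusted p = 0.0484) between values of at most 4.97 in any array, near the low end of the scale, which started at 3.55. CG17776 (X chromosome), named after its values were seen, had -0.35 ± 0.06 (adjusted p = 0.0484). The X chromosome, where Rbf lies, held 4 of the 10 falls and 1 of the 18 rises among 1873 tested genes (0.267% called); the shares of the large autosomal arms were 0.165% to 0.341%.

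How far the main effect is shared by both backgrounds was read from the same arrays as 4 group means, where the 2 contrasts use no array in common but share each gene's estimate of spread. All 28 genes had the same sign in both backgrounds, as 52.1% of all genes did, but the fit had used both contrasts to choose them. Over wtsX1Lats all 28 were at an unadjusted p under 0.05, as were 8.62% of all genes, and none was at an adjusted p under 0.05, nor was any other of the 11982 genes (smallest adjusted p 0.471; limma). Over Canton S 25 of the 28 were called, as were 3.51% of all genes, and the exceptions were Ptip, Dp and tefu (adjusted p = 0.175, 0.0943 and 0.0851). The interaction, which tests the difference between the backgrounds, called 0 of the 28, with 12 at an unadjusted p under 0.05, against 9.65% of all genes (limma). The additive fit chose the 28 on the same arrays and counts a difference between backgrounds as residual spread. These counts therefore follow in part from the choice and are no test of how far the change is shared.

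The replication and chromatin assembly genes were mostly higher in both backgrounds, by less over wtsX1Lats. Their median was 0.26 over wtsX1Lats and 0.92 over Canton S, against -0.02 and 0.00 for all genes. Of the 53, 47 were higher over wtsX1Lats, 9 of them at an unadjusted p under 0.05 (4.08% of all genes), and 48 were higher over Canton S, 26 of them called (1.79% of all genes). The change was smaller over wtsX1Lats in 46 of the 53 (86.8%), against 54.4% of all genes, while the interaction called 0 of them. Across the 53 genes the 2 changes correlated at r = 0.70 and across all genes at r = 0.10; genes are not independent replicates, and the pairs share their probe sets.

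Without wtsX1Lats replicate 1 the median over wtsX1Lats was 0.57, with 49 of the 53 higher. There, 20 genes were called over wtsX1Lats, against 0 with all arrays, and 11 of them belong to the 53. Mcm2 had 0.80 ± 0.12 (SE; adjusted p = 0.0433), Mcm5 0.95 ± 0.14 (0.0399) and Mcm6 0.66 ± 0.09 (0.0311), all subunits of the replicative helicase. RnrL had 0.68 ± 0.08 (0.011), the thymidylate synthase gene Ts 1.01 ± 0.14 (0.0329) and the deoxynucleoside kinase gene dnk 0.86 ± 0.12 (0.0329), so all but 1 of the 4 nucleotide supply genes were among them. The primase subunit Prim1, PolE1 of polymerase epsilon, DNAlig1, dup and timeout made up the rest. elg1, SelG and CG16704 of the 28 were also called there. All these calls rest on leaving out that array. Without wtsX1Lats replicate 2 there was 1 call over wtsX1Lats, and without any other single array there were 0.

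**Figure D4:**
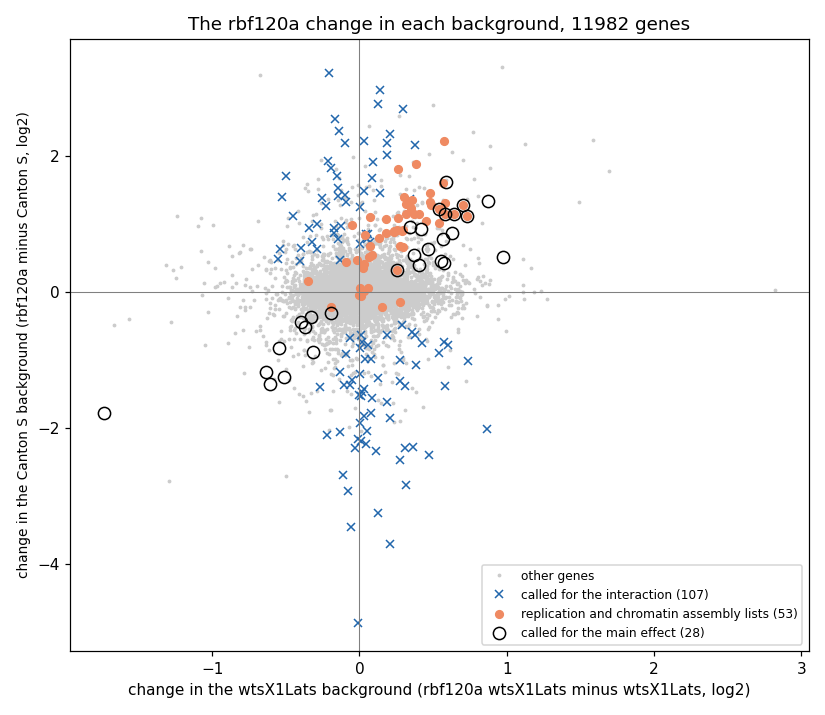
Change with rbf120a over wtsX1Lats (x axis) and over Canton S (y axis), in log2 units, for each of the 11982 genes. Replication and chromatin assembly genes (filled) lie mostly in the upper right, above the diagonal, the 28 genes called for the main effect (rings) lie in the upper right or lower left, and the 107 genes called for the interaction (crosses) stand along the vertical axis with a median size of 0.14 over wtsX1Lats and 1.40 over Canton S.

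Genes chosen over Canton S alone were then followed into the other background. Its arrays gave no value to the contrast that chose the genes, but they helped to set each gene's spread, which both tests share, so that a gene of small spread is favoured in both. Of the 215 genes higher in rbf120a than in Canton S, 140 (65.1%) were higher over wtsX1Lats and 38 (17.7%) were higher there at an unadjusted p under 0.05, against 4.08% of all genes. Of the 205 genes lower than in Canton S (1.71% of the genes tested), 110 (53.7%) were lower over wtsX1Lats and 15 (7.32%) at an unadjusted p under 0.05, against 4.54%. Replication genes made up 26 of the 215; 25 of them were higher over wtsX1Lats, 9 (34.6%) at an unadjusted p under 0.05, with medians of 0.39 over wtsX1Lats and 1.15 over Canton S. The other 189 had medians of 0.05 and 0.85, with 29 (15.3%) at an unadjusted p under 0.05 over wtsX1Lats. These shares describe the genes, and the overlap was given no test of its own.

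The change with rbf120a differed between backgrounds in 107 genes (0.893% of the genes tested), of which 105 were called over Canton S. In 72 of them the signs were opposite in the 2 backgrounds, while 52.1% of all genes had the same sign in both. Their median size was 0.14 over wtsX1Lats and 1.40 over Canton S, so the sign over wtsX1Lats often rested on a small change. An additive fit counts a difference between backgrounds as residual spread, and 0 of the 107 genes passed for the main effect. With 4 group means in place of the additive fit, the mean of both contrasts was called for 229 genes (1.91%), 116 higher and 113 lower, among them all 28; 72 of the 229 were also called for the interaction and 199 over Canton S. LBR (CG17952, arm 2R), the lamin B receptor gene, is an example: 10.62, 10.61 and 10.71 in rbf120a and 10.75, 10.84 and 10.80 in rbf120a wtsX1Lats, against 10.49, 10.65 and 10.86 in wtsX1Lats and 7.84, 7.61 and 8.19 in Canton S. Its 3 mutant groups were alike and Canton S alone was low.

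krimp (CG15707, arm 2R), a Tudor protein gene of the piRNA pathway, had another pattern. It read 7.13, 6.70 and 6.77 in rbf120a and 5.46, 5.01 and 5.28 in rbf120a wtsX1Lats, against 5.52, 5.17 and 4.96 in wtsX1Lats and 4.70, 4.65 and 4.59 in Canton S. Here rbf120a alone was high, and the change was 0.03 ± 0.16 over wtsX1Lats and 2.22 ± 0.16 over Canton S. Hrb87F (CG12749, arm 3R), an hnRNP gene, was low in rbf120a alone, with 10.26 ± 0.34 in rbf120a and 12.31 ± 0.14 in rbf120a wtsX1Lats, against 11.94 ± 0.38 in wtsX1Lats and 12.55 ± 0.01 in Canton S (SD, n = 3 each).

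**Figure D5:**
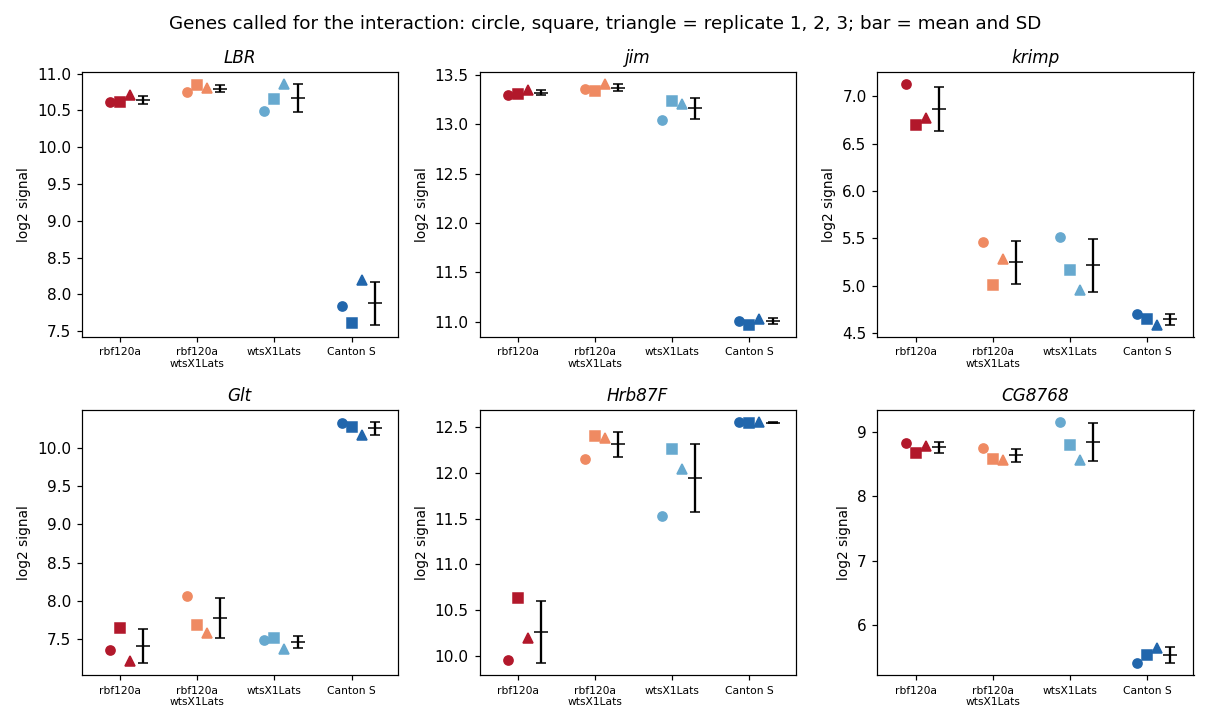
log2 signal of 6 genes called for the interaction, in each array (circle, square and triangle for replicates 1, 2 and 3), with the mean and SD of each group. For LBR, jim, Glt and CG8768 Canton S stands apart from the other 3 groups, and for krimp and Hrb87F rbf120a stands apart.

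Lists for eye development had no calls for the main effect. The 31 photoreceptor and cone cell genes had a median of -0.07. At an unadjusted p under 0.05, 3 of them were lower (against 5.88% of all genes) and 0 higher (against 5.22%). The 10 retinal determination genes had a median of 0.02 and the 14 furrow and morphogen genes one of 0.07. The 14 Notch genes had a median of -0.15, the 17 Hippo pathway and target genes 0.03, and the 11 apoptosis genes 0.02. Among the Hippo targets CycE and ex had 0.47 and 0.34 (adjusted p = 0.334 and 0.506). For the first 3 of these lists the medians had opposite signs in the 2 backgrounds. The retinal determination median was 0.18 over wtsX1Lats (8 of 10 higher) and -0.16 over Canton S (2 of 10). That of the furrow genes was 0.23 over wtsX1Lats (12 of 14) and -0.09 over Canton S (5 of 14), and that of the photoreceptor genes 0.06 over wtsX1Lats (18 of 31) and -0.16 over Canton S (9 of 31). The interaction called 0 genes of these 3 lists (limma). By array, the retinal determination median deviation was -0.28, -0.09 and 0.23 in wtsX1Lats, against -0.04, 0.14 and 0.18 in rbf120a wtsX1Lats. For the furrow genes it was -0.39, -0.15 and 0.15, against -0.04, 0.08 and 0.02. For the photoreceptor genes it was -0.59, -0.24 and 0.19, against -0.35, -0.14 and -0.14. In each list wtsX1Lats replicate 1 lay below, and replicate 3 above, every rbf120a wtsX1Lats array.

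The lists for tissues that a dissected disc can carry also had 0 calls, while nau and Cpr78E, which are in none of the lists, fell as given above. Of 21 blood cell and basement membrane genes, 8 were lower (against 5.88% of all genes) and 0 higher at an unadjusted p under 0.05, with a median of -0.23, made up of 0.01 over wtsX1Lats and -0.36 over Canton S. By array, the median deviation of this list was between -0.11 and -0.06 in rbf120a and between -0.19 and -0.01 in rbf120a wtsX1Lats, against -0.26 to 0.00 in wtsX1Lats and 0.23 to 0.72 in Canton S. Canton S was thus the group apart. The lists for muscle (14 genes), fat body (12), trachea (8), brain and glia (24), antennal disc (8), gut (16), testis (23) and cuticle (18) had medians between -0.11 and 0.07. The lists not yet named, for ribosome biogenesis (17 genes), glycolysis (9), oxidative phosphorylation (22), dosage compensation and sex (10), the ecdysone response (20), heat shock (9), immunity (10) and JNK signalling (11), also had 0 calls, with medians between -0.08 and 0.22.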

How the data were processed

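The authors deposited 1 table of log2 values for 18952 Affymetrix probe sets on 12 arrays; their range (3.55 to 14.53) shows the log2 scale, and how probes were summarised and arrays normalized is not given in the sources at hand. Array medians were 5.76 to 5.86. Of the probe sets, 183 were controls, 13646 had 1 gene in the platform annotation, 402 several and 4721 none; 13543 of them were found in a gene table of the Release 6 plus ISO1 MT assembly, which served for names, arms and neighbours. Where a gene had several probe sets (1094 of the 11982 genes), the brightest on average stood for it. Detection calls were not used here, and precision is limited by the number of arrays.

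The main effect of rbf120a was the coefficient of that allele in a limma 3.58.1 fit (R 4.3.3; lmFit, eBayes with a variance trend) with the wts allele as the other term, over 12 arrays and with 9 residual degrees of freedom. p-values are two-sided, with Benjamini-Hochberg adjustment over all genes; an adjusted p under 0.05 counted as called. Contrasts within each background and the interaction (change over wtsX1Lats minus change over Canton S) came from a fit of 4 group means with 8 residual degrees of freedom. ± after a change is the standard error of the fit and ± after a level is the SD of 3 arrays.

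Named genes were Rbf and wts, the 12 largest rises and falls with a symbol of their own and the 5 largest each way with a CG number among called genes of like sign in both backgrounds, up to 5 called genes per list, and 6 interaction genes each way with the smallest adjusted p. The 32 gene lists, the members and the tests were chosen with earlier results of these data known. Data for the main effect were also simulated over 11982 genes. Noise was drawn independently for each gene and array. The change was the same in both backgrounds, and no wts effect and no interaction were put in. There, changes of 0.5, 1 and 2 were recovered in 73.1%, 95.5% and 100% of changed genes, with 10 false calls among 189. The measured arrays had 107 genes called for the interaction and single arrays that deviated over whole lists. These figures are therefore not the power or error rate of the reported test. Whether this recovery holds for the measured arrays was not tested. Among the measured main effects above 1 in size that did not pass were those of Orc1, timeout and Hsp68, and there were falls as well as rises. Alternatives were the replicate number as a block, each array left out, no variance trend, array weights, a second quantile normalization, genes with a mean under 6 left out, the mean of a gene's probe sets, a change of at least 1, and 4 group means.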

Additional observations from a re-analysis of the deposited data

Results flagged for a closer look

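The difference between the rbf120a change over wtsX1Lats and that over Canton S, given in that order of subtraction, was past the interaction test (limma, adjusted p under 0.05) in 107 genes. The 6 with the smallest adjusted p in each direction are given here. Above 0 were CG6912 (3.41, adjusted p = 3.28e-09), CG15772 (4.86, adjusted p = 3.28e-09), the basement membrane gene Glt (3.15, adjusted p = 1.39e-05), CG1092 (2.21, adjusted p = 0.000194), the hnRNP gene Hrb87F (2.65, adjusted p = 0.000476) and CG31522 (3.93, adjusted p = 0.00134). Below 0 were the zinc finger gene jim (-2.11, adjusted p = 2.3e-07), CG8768 (-3.44, adjusted p = 4.84e-06), the lamin B receptor gene LBR (-2.64, adjusted p = 4.43e-05), CG9784 (-2.14, adjusted p = 0.000186), krimp (-2.19, adjusted p = 0.000551) and l(3)87Df (-1.86, adjusted p = 0.00157).

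In 10 of these 12 genes Canton S was the group apart, and in Hrb87F and krimp it was rbf120a. CG15772 averaged 4.51 ± 0.09 in rbf120a, 4.46 ± 0.06 in rbf120a wtsX1Lats, 4.46 ± 0.12 in wtsX1Lats and 9.38 ± 0.17 in Canton S (SD, n = 3 each). The other probe sets of jim had main effects of 0.33 and 0.39, against 1.26 for the one used, and those of CG31522 had 0.17 and -0.05, against -1.75. Allele and strain cannot be told apart in the step to Canton S.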

How the results depend on the processing

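With the replicate number as a block, 1 gene was higher and 0 lower, 1 was also called over Canton S, and 0 replication genes were called. The labels do not say whether equal numbers share a batch. Deviations from the group mean correlated between -0.30 and 0.31 for the 18 same-number pairs and between -0.34 and 0.46 for the 36 others. These overlapping ranges do not settle it. Between rbf120a and wtsX1Lats the same-number pairs had 0.22, 0.30 and 0.22, and the others -0.26 to -0.05. Between rbf120a and rbf120a wtsX1Lats the same-number pairs had -0.30, -0.30 and 0.31. With Canton S, those of rbf120a had 0.26, -0.20 and -0.18, and those of wtsX1Lats 0.29, -0.16 and -0.12. Those of rbf120a wtsX1Lats had -0.29, -0.16 and 0.08 with Canton S and -0.04, -0.16 and 0.04 with wtsX1Lats. Only between rbf120a and wtsX1Lats were all same-number pairs above 0. Without a variance trend 35 genes were higher and 38 were also called over Canton S; without genes of a mean under 6, 32 and 38. With array weights, whose estimation stopped before it converged, 260 were higher, 176 lower, 432 also called over Canton S, 248 called for the interaction and 41 replication genes higher. With 4 group means 116 were higher, 113 lower and 18 replication genes higher. A change of at least 1 left 2 higher, 1 lower, 3 also called over Canton S and 0 replication genes. The cause of these differences was not tested. Leaving out 1 array gave 1 to 195 genes higher, 0 to 74 lower, 0 to 16 also called over wtsX1Lats, 1 to 215 also called over Canton S, 41 to 121 for the interaction and 0 to 41 replication genes.

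Of 782 values of named genes under alternatives, 504 kept direction and call, 271 lost the call (235 of them with 1 array left out) and 7 turned direction, all of them the main effect in wts, which was never called: 0.03, 0.02 and 0.00 without rbf120a replicates 1, 2 and 3, 0.00 without rbf120a wtsX1Lats replicate 1, 0.09 without wtsX1Lats replicate 3, and 0.04 and 0.01 without Canton S replicates 2 and 3; the lowest was -0.17, without wtsX1Lats replicate 1. The interaction of jim was -0.37 (adjusted p = 0.667) with the mean of its probe sets. Scanner files were not used here, so signal over background is unknown, for dim genes such as nau in particular.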

Other observations

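Some members of the lists above that were not yet named had main effects of 1 or more in size without passing the test. Hsp68 and msl-3, given here, were rises. The lowest main effect was -1.5 in the fat body list, -1.4 in cuticle, -1.16 in heat shock, -1.11 in blood cell and -1.08 in immunity. The highest in the gut list was 1.56. The genes of this section were chosen after their values were seen. Hsp68, a heat-inducible chaperone gene, read 10.82, 10.40 and 10.49 in rbf120a and 11.01, 10.96 and 9.59 in rbf120a wtsX1Lats, against 10.68, 7.85 and 9.65 in wtsX1Lats and 8.53, 7.98 and 8.64 in Canton S, with a main effect of 1.65 ± 0.42 (adjusted p = 0.14). Its wtsX1Lats arrays were spread over almost the whole range. msl-3, a subunit of the male dosage compensation complex, averaged 9.16 ± 0.10 in rbf120a and 8.74 ± 0.13 in rbf120a wtsX1Lats, against 8.65 ± 0.51 in wtsX1Lats and 7.26 ± 0.43 in Canton S (SD, n = 3 each). Its main effect was 1.00 ± 0.31 (adjusted p = 0.223), and its interaction was called (-1.82, adjusted p = 0.0368).

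Among blood cell genes the hemocyte genes Hml and eater were high in Canton S alone. Hml averaged 7.42 ± 0.10 in rbf120a and 7.46 ± 0.30 in rbf120a wtsX1Lats, against 7.41 ± 0.23 in wtsX1Lats and 9.46 ± 0.51 in Canton S (SD, n = 3 each), and eater had an interaction of 2.60 (adjusted p = 0.0171). The basement membrane gene SPARC had changes of -0.30 ± 0.13 over wtsX1Lats and -0.70 ± 0.13 over Canton S, with a main effect of -0.50 ± 0.10 that did not pass the test (adjusted p = 0.0785).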
